A study of Mus musculus with 4 samples.

Results

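The genes described here encode the beta subunits of the sodium pump (Atp1b1, Atp1b2 and Atp1b3) and its FXYD regulators (Fxyd1, Fxyd2, Fxyd3, Fxyd4 and Fxyd5). They are the 8 of 19934 genes tested whose single symbol in the array's annotation is one of these names, and a gene with several rows is represented by its brightest row on average. All 8 were found, no filter on signal was applied, and each therefore entered the comparison. The names were fixed by gene family and not by the difference between the genotypes, though earlier results of these data were known at that time.

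Expression was measured in whole kidney of C57BL6/N male mice that lack Usp2 (Usp2-KO), a gene for a deubiquitinating enzyme, and of wild-type (WT) littermates. All mice were 12 weeks old and were killed at Zeitgeber time 12, which the labels call the peak of Usp2 expression in the day, and no drug or diet is named for either genotype. The labels do not say which part of Usp2 was removed or from which cells. From 6 pairs of littermates, kidney RNA of 3 mice at a time was pooled, which gave 2 pools of each genotype with littermates under the same pool number, so each of the 4 arrays averages over 3 animals and the p-values below measure the spread between pools, not between mice.

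The sodium pump, or Na,K-ATPase, uses ATP to carry sodium out of the cell and potassium in. In the kidney it sits in the basolateral membrane of the tubule, where it drives the reabsorption of sodium in every segment. Its alpha subunit is the catalytic part, and the glycosylated beta subunit is needed to fold the enzyme and bring it to the membrane. FXYD proteins are small single-span proteins, named for a shared amino acid motif, that bind the pump and set its affinity for sodium and potassium in a manner that depends on the tissue.

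Values are on the log2 scale, on which a difference of 1 is a doubling of signal, and the array medians lay between 7.44 and 7.46. The kidney markers Lrp2, the endocytic receptor of the proximal tubule, and Umod, the secreted protein of the thick ascending limb, had WT means of 13.58 and 13.43. Usp2 had 11.63 and 11.71 in the WT pools and 7.65 and 7.60 in the Usp2-KO pools, the direction that the labels give, and was the 1 gene called over all genes (limma, adjusted p under 0.05). Different probe sets differ in how brightly they bind, so levels are compared between pools for 1 gene and never between genes.

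None of the 8 genes passed the test between Usp2-KO and WT kidney. By limma, which shares the estimate of spread over all genes, 0 of 8 had an adjusted p under 0.05, where 0.00502% of all genes did, and 0 of 8 had an unadjusted p under 0.05, where 9.11% of all genes did. Their differences, Usp2-KO minus WT, lay between -0.09 and 0.07, that is between 0.939 and 1.05 times the WT level. All 8 were within 0.1 of zero, as were 67.5% of all genes. The median difference of the 8 was -0.05 beside -0.01 over all genes, and the median size was 0.06 beside 0.07. In an array of whole kidney, fewer cells of a type and less RNA per cell cannot be told apart. Over the 8 genes the 95% confidence intervals reached from 0.811 to 1.20 times the WT level, so larger changes lie outside them and smaller ones are not resolved with 2 pools per genotype. With 2 pools against 2, the smallest p of an exact permutation test (two-sided) is 0.333.

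**Figure D1:**
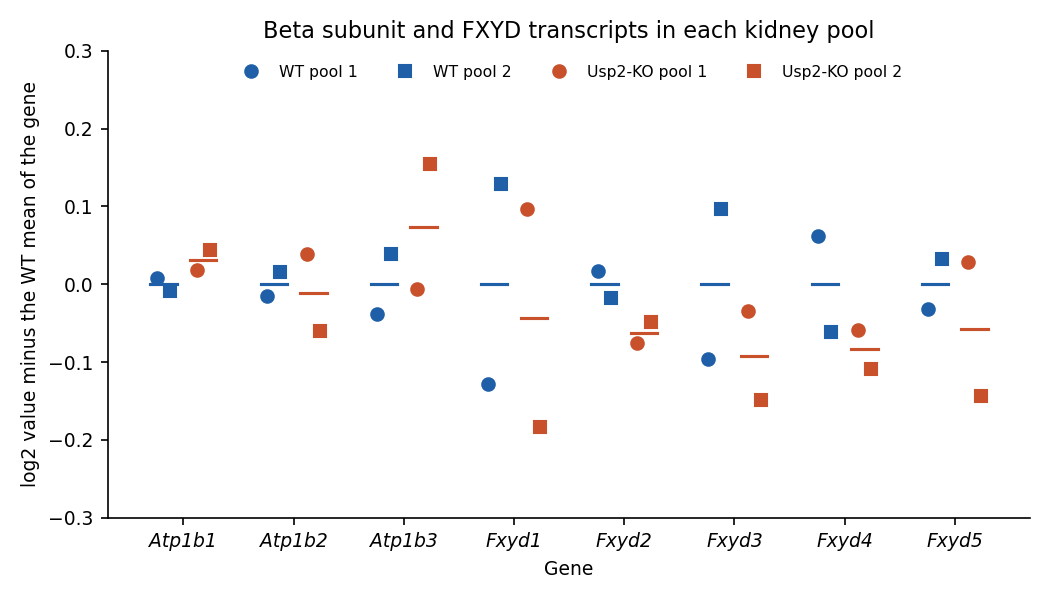
Each point is the log2 value of a gene in 1 pool minus the mean of its WT pools, for WT (blue) and Usp2-KO (orange), with circles for pool 1, squares for pool 2 and bars for the means of 2 pools. The Usp2-KO means lie between -0.09 and 0.07 of the WT means, and Fxyd1 spreads most within each genotype.

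Among the beta subunits, Atp1b1 encodes the main form of the kidney tubule. Its log2 value was 13.36 and 13.34 in the WT pools and 13.37 and 13.40 in the Usp2-KO pools. Both Usp2-KO pools lay above both WT pools, by a very small margin. The WT mean was 13.35 ± 0.01 and the Usp2-KO mean 13.38 ± 0.02 (SD, n = 2 pools). The difference was 0.03 (SE 0.07, 95% confidence interval -0.13 to 0.19, limma adjusted p = 0.931), or 1.02 times the WT level with an interval of 0.916 to 1.14. The littermate comparisons gave 0.01 and 0.05.

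Atp1b3, the beta 3 subunit, is found in many tissues. It had 10.33 and 10.41 in the WT pools and 10.36 and 10.52 in the Usp2-KO pools. The genotypes overlapped, since Usp2-KO pool 1 lay between the WT pools, and the 2 Usp2-KO pools differed from each other by 0.16. The difference between the genotypes was 0.07 (SE 0.08, interval -0.11 to 0.26, limma adjusted p = 0.845), and without Usp2-KO pool 2 it was -0.01. Atp1b3 is also the gene among the 8 that has more than 1 row on the array. Its other row, with a mean of 9.91, had 9.87 in both WT pools and 9.97 and 9.92 in the Usp2-KO pools, a difference of 0.08 (SE 0.07, limma adjusted p = 0.792 over all rows). Both rows carry the symbol Atp1b3, and the difference was of like size in each. The pools did not take the same order, since Usp2-KO pool 2 was highest in the brighter row and Usp2-KO pool 1 in the other.

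Atp1b2, the beta 2 subunit, is best known from glia, where it also acts in cell adhesion. It had 9.24 and 9.27 in the WT pools and 9.29 and 9.19 in the Usp2-KO pools. The WT pools lay between the Usp2-KO pools. The difference was -0.01 (SE 0.07, interval -0.18 to 0.16, limma adjusted p = 0.98), and it was 0.04 without Usp2-KO pool 2 and 0.0045 without WT pool 2.

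All 5 FXYD genes among the 8 had a lower mean in Usp2-KO kidney, as did 10465 of all 19934 genes, and none of the 5 passed. Their differences ranged from -0.09 to -0.04 with a median of -0.06. The signs of the 2 littermate comparisons were the same for Fxyd2 and Fxyd4 and opposite for Fxyd1, Fxyd3 and Fxyd5. Of the FXYD genes outside the 8, described below, Fxyd6 was higher by 0.29 and Fxyd7 differed by -0.20.

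Fxyd2 encodes the gamma subunit, the FXYD protein of the proximal tubule, thick limb and distal convoluted tubule, whose mutation in people causes renal magnesium loss. Its log2 value was 13.10 and 13.06 in the WT pools and 13.01 and 13.03 in the Usp2-KO pools. Both Usp2-KO pools lay below both WT pools. The means were 13.08 ± 0.02 and 13.02 ± 0.02 (SD, n = 2 pools), a difference of -0.06 (SE 0.07, interval -0.22 to 0.10, limma adjusted p = 0.848), or 0.958 times the WT level with an interval of 0.858 to 1.07. With the pools of 1 genotype only 0.03 apart, the SE comes mostly from the spread that limma takes from all genes. Fxyd2 and Atp1b1 were the 2 of 8 genes whose genotypes did not overlap, where 38.9% of all genes had no overlap.

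Fxyd4 encodes the channel-inducing factor CHIF, an FXYD protein of the collecting duct that raises the pump's affinity for sodium and is regulated by aldosterone. It had 8.29 and 8.17 in the WT pools and 8.17 and 8.12 in the Usp2-KO pools. WT pool 1 stood above the other pools, and WT pool 2 and Usp2-KO pool 1 had nearly the same value. The difference was -0.08 (SE 0.08, interval -0.26 to 0.09, limma adjusted p = 0.794), the smallest p of the 8 genes, with -0.12 and -0.05 in the littermate comparisons. Without WT pool 1 it was -0.02. Of the 7 principal cell markers 6 had a higher mean in Usp2-KO kidney, as did 9469 of all 19934 genes. Among the 6 were the water channel gene Aqp3, higher by 0.19, and the sodium channel gene Scnn1g, by 0.18. The member with the largest difference went the other way, namely Elf5, a transcription factor named after its value was seen, at -0.26 (-0.19 and -0.32 in the littermate comparisons, and -0.04 without Usp2-KO pool 2). Of the 7 markers 0 passed, and 2 (28.6%) had an unadjusted p under 0.05, beside 9.11% of all genes. Their part in the value of Fxyd4 was not tested. By distance between centred values over the 4 arrays, the 3 genes most like Fxyd4 among 19933 were Grap, Mok and Rab9b, at 0.0081, 0.0093 and 0.0098, and their differences were -0.09, -0.08 and -0.09.

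Fxyd1 encodes phospholemman, the FXYD protein of heart and muscle that protein kinases phosphorylate. It had 9.08 and 9.33 in the WT pools and 9.30 and 9.02 in the Usp2-KO pools. The pools of 1 genotype differed by 0.26 in WT and by 0.28 in Usp2-KO kidney, far more than the difference between the genotypes of -0.04 (SE 0.11, interval -0.30 to 0.21, limma adjusted p = 0.942). The littermate comparisons gave 0.23 and -0.31, and leaving out Usp2-KO pool 2 or WT pool 2 gave 0.10 and 0.09.

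Fxyd3, known from stomach, colon and bladder epithelium and from tumours, had 7.28 and 7.47 in the WT pools and 7.34 and 7.23 in the Usp2-KO pools. It was highest in WT pool 2 and lowest in Usp2-KO pool 2, with the other pools between. The difference was -0.09 (SE 0.09, interval -0.29 to 0.11, limma adjusted p = 0.809), and it was 0.0050 without WT pool 2. Fxyd5 encodes dysadherin, an FXYD protein with a long extracellular part that also affects cell adhesion. It had 10.37 and 10.43 in the WT pools and 10.43 and 10.26 in the Usp2-KO pools, so Usp2-KO pool 2 alone stood below the rest. The difference was -0.06 (SE 0.08, interval -0.24 to 0.13, limma adjusted p = 0.885), and it was 0.03 without Usp2-KO pool 2.

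**Figure D2:**
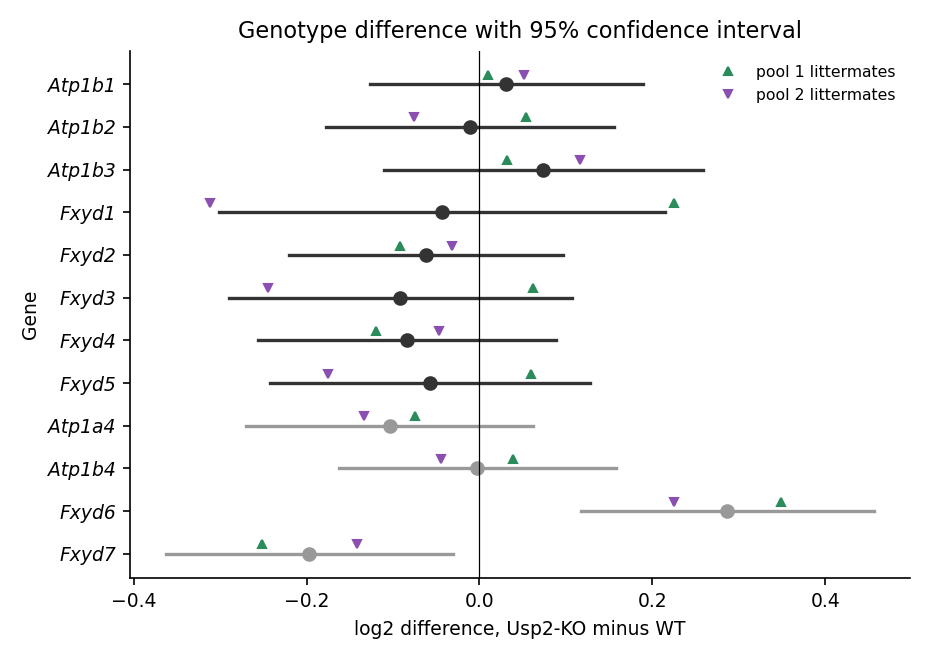
Points give the log2 difference, Usp2-KO minus WT, and lines its 95% confidence interval by limma, in black for the 8 genes and in grey for 4 relatives. Triangles give the pool 1 (up) and pool 2 (down) littermate comparisons. All 8 intervals include 0, while those of Fxyd6 and Fxyd7 do not, though neither gene passed the adjusted threshold.

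For 6 of the 8 genes, all but Atp1b1 and Fxyd2, the gap between the pools of at least 1 genotype was larger than the difference between the genotypes, as for 73.4% of all genes. Usp2-KO pool 2 was the lowest of the 4 pools for 5 of the 8 (Atp1b2, Fxyd1, Fxyd3, Fxyd4 and Fxyd5) and the highest for Atp1b1 and Atp1b3. It was the lowest for 29.2% of all genes. The sign of the difference was the same in both littermate comparisons for 4 of the 8 genes (Atp1b1 and Atp1b3 higher, Fxyd2 and Fxyd4 lower), beside 51.5% of all genes.

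**Figure D3:**
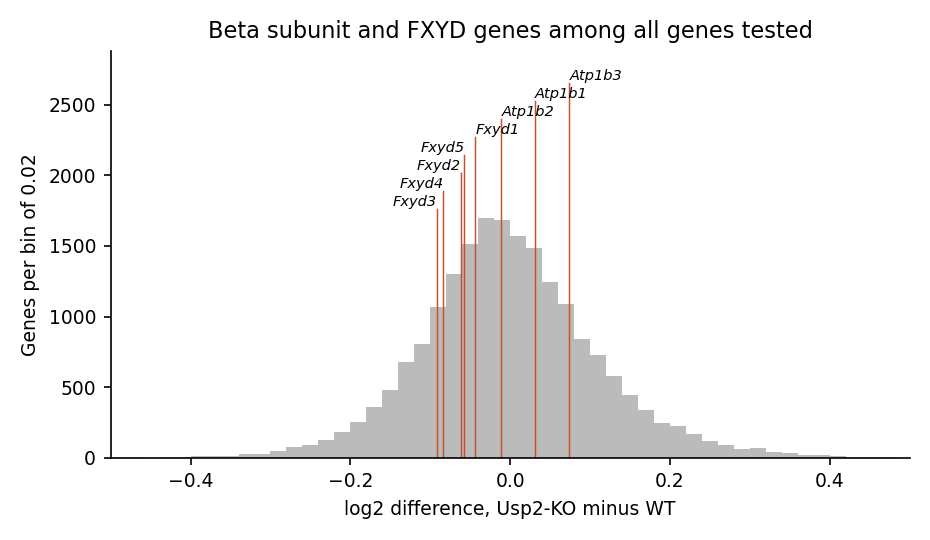
Grey bars count genes by log2 difference, Usp2-KO minus WT, in bins of 0.02, and orange lines mark the 8 genes. All 8 lie within 0.1 of zero, where 67.5% of the 19934 genes lie.

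Fxyd1, Fxyd3 and Fxyd5 took the same order over the pools, with WT pool 2 highest, then Usp2-KO pool 1, WT pool 1 and Usp2-KO pool 2, an order held by 7.16% of all genes. Their pool values were set beside the mean levels of markers of other cells of the tissue, a comparison picked with these values in view. Of 13 marker lists 3 took that order too, those of urothelium, endothelium and leukocytes, so no list goes with 1 of the 3 genes in particular. Nor were shared orders confined to these genes. Fxyd4 had the order of the glia list (2 markers measured) and Atp1b1 that of the distal convoluted and connecting tubule list. Atp1b2 had the order of the proximal tubule and fibroblast lists. The 8 urothelial markers, genes of the lining of the renal pelvis, had mean log2 values of 7.26 and 7.42 in the WT pools and 7.29 and 7.14 in the Usp2-KO pools. The 5 endothelial markers had means of 10.10 and 10.19 in WT and 10.15 and 10.06 in Usp2-KO pools. The 7 leukocyte markers had nearly level means of 7.827 and 7.846 in WT and 7.845 and 7.819 in Usp2-KO pools. WT pool 2 and Usp2-KO pool 1 were thus almost equal, and their order in this list rests on the third decimal. The 5 smooth muscle markers measured took another order, with 8.76 and 8.92 in WT and 8.96 and 8.98 in Usp2-KO pools.

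Of the 8 urothelial markers 0 passed and 0 had an unadjusted p under 0.05, beside 9.11% of all genes. All 8 had a lower mean in Usp2-KO kidney, as did 10465 of all 19934 genes. Examples were Upk1a, a uroplakin, at -0.26, Krt20, a keratin, at -0.16 and Upk2, another uroplakin, at -0.15. Upk2 lies near Usp2 on chromosome 9, in a stretch described below. Upk1a had 0.09 and -0.62 in the littermate comparisons, and without WT pool 2 it was at -0.014 and Upk2 at -0.049. Of the smooth muscle markers Myh11, a myosin, differed by 0.21 and Acta2, an actin, by 0.10 (0.04 without WT pool 1). Of these 5 smooth muscle markers 0 passed, and 1 (20%) had an unadjusted p under 0.05, beside 9.11% of all genes. The part of these cells in the FXYD values was not tested.

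**Figure D4:**
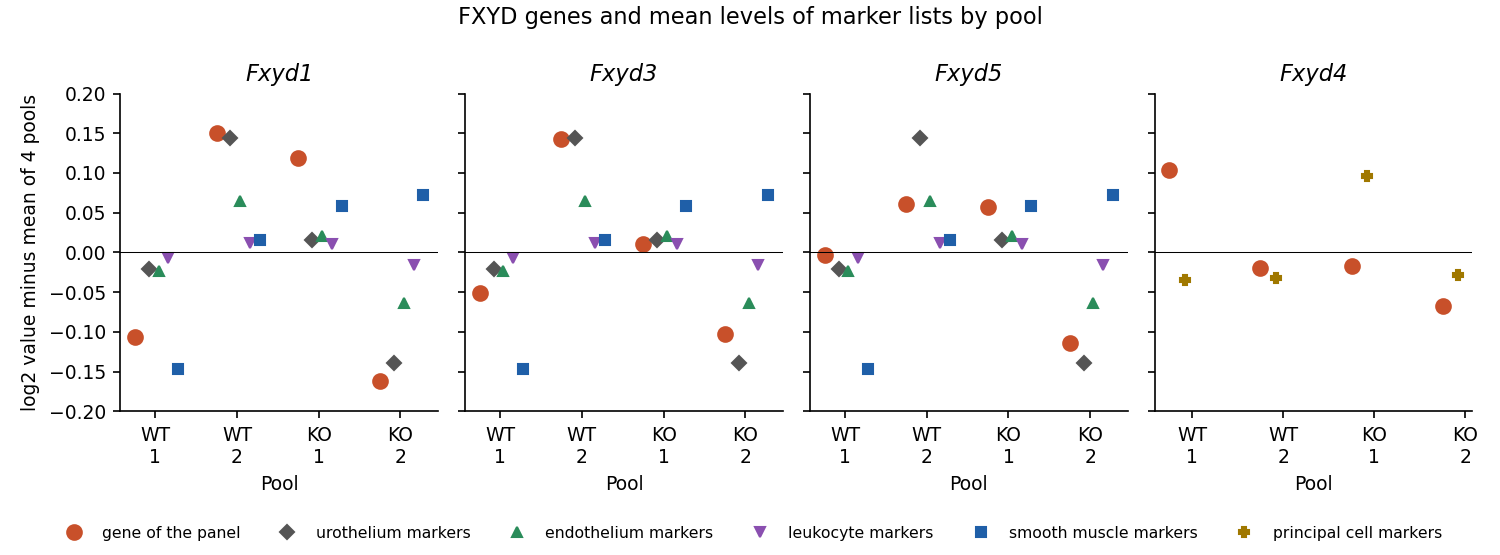
Each panel plots, for the 4 pools, the log2 value of an FXYD gene (orange circles) and the means of marker lists (other symbols), each minus its own mean over the 4 pools. Fxyd1, Fxyd3 and Fxyd5 take the same order over the pools as the urothelial, endothelial and leukocyte lists and not that of the smooth muscle list, and Fxyd4 does not take that of the principal cell list.

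The 2 FXYD relatives outside the 8 genes, both best known from the nervous system, had differences of larger size. Fxyd6 had 8.93 in both WT pools and 9.28 and 9.16 in the Usp2-KO pools, so that both Usp2-KO pools lay above. Its difference was 0.29 (SE 0.07, interval 0.12 to 0.46), with an unadjusted p of 0.0041 and limma adjusted p = 0.326 (0.143 with littermates as a block). Fxyd7 had 7.88 and 7.78 in the WT pools and 7.63 and 7.64 in the Usp2-KO pools, so that both Usp2-KO pools lay below. Its difference was -0.20 (SE 0.07, interval -0.36 to -0.03, limma adjusted p = 0.466). Neither passed. The muscle protein gene Atp1b4 differed by -0.0025 (SE 0.07), a sign that turned (0.03) when quantile normalization was run again. Atp1a4, the alpha subunit of sperm, had a difference of -0.10 (SE 0.07, limma adjusted p = 0.716), and of -0.06 without Usp2-KO pool 2.

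Fxyd2 and Fxyd6 are neighbours on chromosome 9, the chromosome of Usp2, with 45 measured genes between Usp2 and Fxyd2 and 44 between Usp2 and Fxyd6. The measured gene on the other side of Fxyd2 is Dscaml1, a cell adhesion gene, which differed by -0.21 (SE 0.07, limma adjusted p = 0.416). The 3 consecutive genes thus had differences of 0.29, -0.06 and -0.21, and only the interval of Fxyd2 included 0. Among the 200 measured genes within 100 places of Usp2, 46 (23.0%) had an unadjusted p under 0.05, beside 9.11% of all genes, and their median difference was -0.02. The sides differed, with 11 of the 100 genes before Usp2 and 35 of the 100 after it, the side of Fxyd6 and Fxyd2. They also differed in gene content, since most genes from place -100 to place -27 before Usp2 are olfactory receptor genes. The part of gene content in these counts was not tested. Littermates of a knockout line can differ in the DNA around the targeted gene, and in these data that and the loss of Usp2 cannot be told apart. The markers Upk2 (urothelium), Cd3e (leukocytes) and Tagln (smooth muscle) lie in this stretch too, at places 20, 35 and 52 after Usp2. Atp1b3 also lies on chromosome 9, with 442 measured genes between it and Usp2. Fxyd5, Fxyd7, Fxyd1 and Fxyd3 lie in 1 cluster on chromosome 7 that also holds Lgi4, a secreted protein gene, with differences in that order of -0.06, -0.20, -0.04 and -0.09 and of -0.04 for Lgi4.

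**Figure D5:**
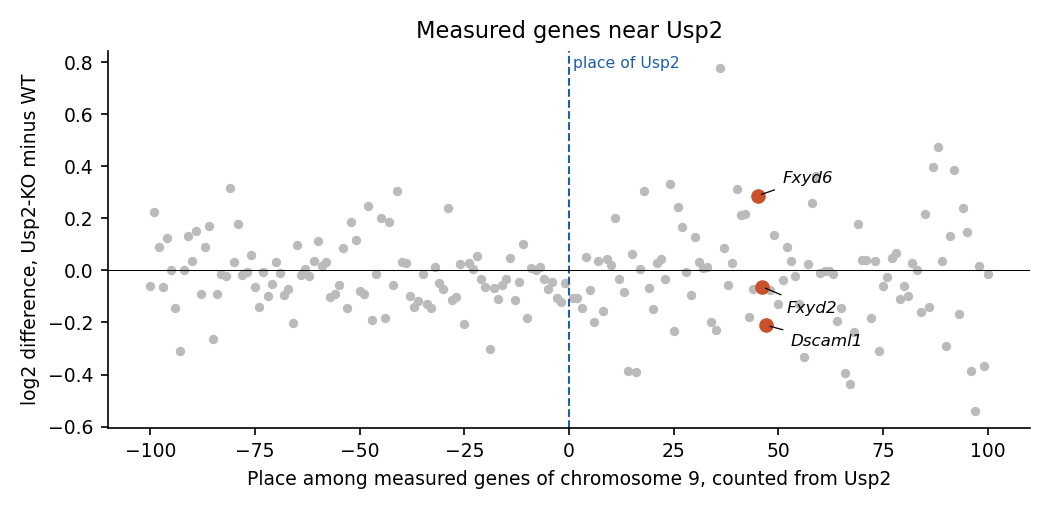
The log2 difference, Usp2-KO minus WT, of the 200 measured genes within 100 places of Usp2 on chromosome 9, by place counted from Usp2 (dashed line, Usp2 itself left out). Fxyd2 at -0.06 lies between Fxyd6 at 0.29 and Dscaml1 at -0.21.

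The other genes around the pump were read in the same fit. Of 31 measured of 39 listed, 18 had a higher and 13 a lower mean in Usp2-KO kidney, with a median of 0.02, and 0 passed (2 higher and 1 lower at an unadjusted p under 0.05, namely Scnn1g, Fxyd6 and Fxyd7). These 3 are 9.68% of the 31, near the 9.11% of all genes. Of the 12 measured partners and regulators of the pump, 6 were at a higher and 6 at a lower mean and 0 had an unadjusted p under 0.05. Those of the smallest p were Prkca, a protein kinase C, at 0.15, the kinase gene Src at -0.13 and Nkain3, of a family of membrane proteins that interact with the pump, at -0.14. Without Usp2-KO pool 2 Src was at -0.07, and without WT pool 1 Nkain3 was at -0.05. The step that the pump serves is the entry of sodium through the apical membrane. Of the 8 genes for that step 7 had a higher mean, beside 9469 of all 19934 genes, and the median was 0.04. In the pool 1 littermate comparison the mean difference of the 8 was 0.11, with 7 higher. In that of pool 2 it was 0.02, with 3 of the 8 lower. Among them the sodium channel subunits Scnn1g and Scnn1b differed by 0.18 and 0.14 and the cotransporter gene Slc12a1 by 0.13. Scnn1b was at 0.08 with Usp2-KO pool 1 left out, and Slc12a1 at 0.07 with WT pool 2 left out. Of the 3 measured basolateral channel genes and the 3 H,K-ATPase genes, which encode the relatives of the pump that secrete protons, 0 had an unadjusted p under 0.05. Pcbd1, a cofactor of the HNF1 factors that drive Fxyd2, differed by 0.06 (0.03 without WT pool 1).

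A fit with pool number as a block, which compares littermates, called 153 genes (0.768%) over all genes against 1 without it, and 0 of the 8 genes and 0 of the 31 others around the pump were among them. The lowest adjusted p of the 8 in that fit was 0.922. The block fit had 91.6 degrees of freedom in all, of which 90.6 came from the spread shared over all genes. Its p-values therefore rest little on the spread of each gene's own pools.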

How the data were processed

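The deposited table holds log2 expression values of 4 arrays, which the authors made by RMA (background correction, quantile normalization and a summary per probe set), as the submitters' processing notes state. Software, version and genome build are not given in the sources used here. The label was biotin, on target made from 300 ng of RNA, per the labels' protocols. Of 28270 rows, 21780 carried 1 gene symbol in the platform's annotation, which gave 19934 genes by the row with the highest mean. Usp2-KO minus WT was fitted over all of them using lmFit and eBayes of limma 3.58.1 under R 4.3.3 (genotype as the term, 8.87 degrees of freedom in all), with Benjamini-Hochberg adjustment and a threshold of 0.05. The fit was tested on simulated data.

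The design text keeps littermates in pools of the same number, which pairs them, so pool number entered another fit as a block. That fit had 91.6 degrees of freedom in all. Across genes, pools of 1 number deviated from their genotype means with a correlation of -0.121. The order of genes on chromosomes was read from a gene table of GRCm38.p6, and no coordinates are given since the array's build is not named. The 8 genes and the lists were chosen with earlier results of these data known. Named beside the 8 were their relatives, Usp2, up to 3 genes of the smallest p in each list described, the 3 genes nearest to the gene of the smallest p, and the neighbours of Fxyd2. Lgi4, Elf5 and Tagln, and Lrp2 and Umod as kidney markers, were added later. Figures were drawn with matplotlib 3.10.9.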

Additional observations from a re-analysis of the deposited data

How the results depend on the processing

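In 10 alternative settings with all pools and with each of the 4 pools left out, 0 of the 8 genes and 0 of the 31 genes around the pump passed, and the lowest adjusted p of the 8 was 0.589. Of 111 such values for the 8 genes, 7 changed sign, each with a pool left out. Most settings with all pools change only the spread, the threshold or the genes included. They leave a gene's difference as it is and could not change its sign. Without 1 pool the differences ranged from -0.0605 to 0.0385 for Atp1b2, -0.0065 to 0.15 for Atp1b3, -0.18 to 0.10 for Fxyd1, -0.19 to 0.0050 for Fxyd3, -0.14 to 0.028 for Fxyd5, -0.0285 to 0.0235 for Atp1b4 and -0.0845 to 0.00050 for Lgi4. Atp1b4 was at 0.030 with quantile normalization run again. Fxyd3 has no value among genes above the median signal, which it does not reach. Over all genes, against 1 in the main fit, the count was 153 with the littermate block, 18 with an intensity trend, 7 among genes above the median signal, 7 among those with a mean of at least 6, 2 at an adjusted p under 0.10, and 1 to 2 without 1 pool. The littermate block changed no call among the 8 genes. With the pools crossed (WT pool 1 with Usp2-KO pool 2), a setting chosen after seeing the data, it gave 1 gene. Of the 72 cell type markers measured, 0 passed in the main fit and 12 (16.7%) had an unadjusted p under 0.05, beside 9.11% of all genes. The count was 5 with the block (Adipoq, Atp6v0d2, Calb1, Slc8a1 and Trpv5), 3 with the trend, and 1 in each of the signal filters. The number of arrays limits the precision.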
